A study of Mus musculus with 2 samples.

Results

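The genes described are 10 interferon-induced GTPases: Gvin1, Gbp2, Gbp3, Gbp4, Igtp, Iigp1, Iigp2, Irgm1, Tgtp and Mx1. They were taken as every gene spot on both arrays that carries one of these names (Irgm1 also as Irgm), which gave 16 probes for 10 of the 27597 gene symbols on the array. Cells sorted as naive CD8+ T cells (CD44low and CD25low) came from C57BL/6 mice of the genotype Bcl11bF/F/dLck-iCre and from wild type mice, at a stated purity above 90%. The iCre recombinase is driven by the distal Lck promoter, so that floxed Bcl11b, a zinc-finger transcription factor gene, is lost late in T cell development. Age, the number of mice per sample and any treatment are not given in the labels. The p-values measure only the spread between these 2 arrays, pooled over all measured genes, and not each gene's own spread. The 4 samples lay on 2 two-colour arrays, each carrying a Cy5-labelled knockout sample beside a Cy3-labelled wild-type sample, called biological replicates 1 and 2. The dyes were never swapped, so an effect of the dye on a gene and an effect of the genotype cannot be told apart.

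Interferons act through receptor-bound kinases and transcription factors that bind gamma-activated sites and interferon-stimulated response elements in the promoters of their target genes. The GTPases among these targets defend cells from within. Immunity-related GTPases (Iigp1, Tgtp, Igtp, Iigp2 and Irgm1) and guanylate-binding proteins (the Gbp genes) gather on membranes around intracellular parasites and bacteria. Mx proteins block viruses, and Gvin1 encodes a very large inducible GTPase. In T cells the genes are known to respond to interferon gamma and type I interferon.

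The promoters of 6 of the members are described next. The members were chosen as interferon-induced genes, so response elements in their promoters may follow from that choice and are no separate finding. RefSeq promoters (build GRCm38.p6, 250 bases before to 50 bases after the annotated start) were examined for 6 of the 10 genes. Gvin1, Gbp4, Iigp1 and Mx1 were left out, so whether their promoters hold either motif is not known here. All 6 examined genes held the core of an interferon-stimulated response element, searched as GAAANNGAAA on both strands. Of all 32851 promoter entries, 3.44% held it. The gamma-activated site, searched as TTCNNNGAA, was found in 3 of the 6 (Igtp, Iigp2 and Tgtp) and in 8.30% of all entries. No match of the response element overlapped a gamma-activated site. The 100 bases before each start that hold these matches follow, 5′ to 3′ on the gene's strand, with the matches in capitals. Gbp3 has a second annotated start, whose promoter held neither motif.
Gbp2, chr3:142620563-142620662, plus strand: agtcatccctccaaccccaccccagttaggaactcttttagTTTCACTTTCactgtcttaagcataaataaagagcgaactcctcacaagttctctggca
Gbp3, chr3:142559944-142560043, plus strand: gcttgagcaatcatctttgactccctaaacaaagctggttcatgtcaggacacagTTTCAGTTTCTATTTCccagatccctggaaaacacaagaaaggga
Irgm1, chr11:48871421-48871520, minus strand: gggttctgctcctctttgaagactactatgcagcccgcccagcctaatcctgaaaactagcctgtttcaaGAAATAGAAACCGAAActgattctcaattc
Igtp, chr11:58199456-58199555, plus strand: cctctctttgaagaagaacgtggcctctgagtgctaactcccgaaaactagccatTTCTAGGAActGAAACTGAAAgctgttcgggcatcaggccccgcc
Iigp2, chr11:58214877-58214976, plus strand: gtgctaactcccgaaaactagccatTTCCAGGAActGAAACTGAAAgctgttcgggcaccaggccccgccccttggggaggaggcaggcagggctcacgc
Tgtp, chr11:48992247-48992346, minus strand: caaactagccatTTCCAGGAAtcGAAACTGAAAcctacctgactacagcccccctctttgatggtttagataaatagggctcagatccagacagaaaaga

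In Igtp, Iigp2 and Tgtp the gamma-activated site stood directly upstream of the response element, with 2 bases between them in each gene. In Gbp3 and Irgm1, 2 matches of the response element overlapped each other. The Gbp2 promoter held a single match, 59 bases before its start. These letter matches are descriptions of the sequence, and binding to them was not measured.

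Levels are log2 intensities, normalised between channels and arrays. A ratio is the log2 of knockout over wild type on 1 array, and a gene counted as measured when 1 channel or the other showed a probe well above background on array 1 and array 2 alike. All 10 GTPases were measured, among 9281 genes, with 13 of their 16 probes. Across all measured genes, Benjamini-Hochberg adjusted p under 0.05 in limma was reached by 1.49%, with 1.24% higher and 0.248% lower in the knockout. Of the 10 GTPases, 1 rose (Gvin1), none fell and 9 did not pass, and 1 had an unadjusted p under 0.05, as did 9.76% of all measured genes. The median mean ratio of the 10 was 0.21, beside 0.04 over all measured genes. On the level scale, knockout and wild-type samples did not overlap for 2 of the 10 (Gvin1 and Igtp), beside 42.1% of all measured genes. With 2 arrays an exact permutation test of a single gene cannot go below p = 0.5. The RNA came from bulk sorted cells, so fewer cells that express a gene and less RNA per cell cannot be told apart.

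**Figure D1:**
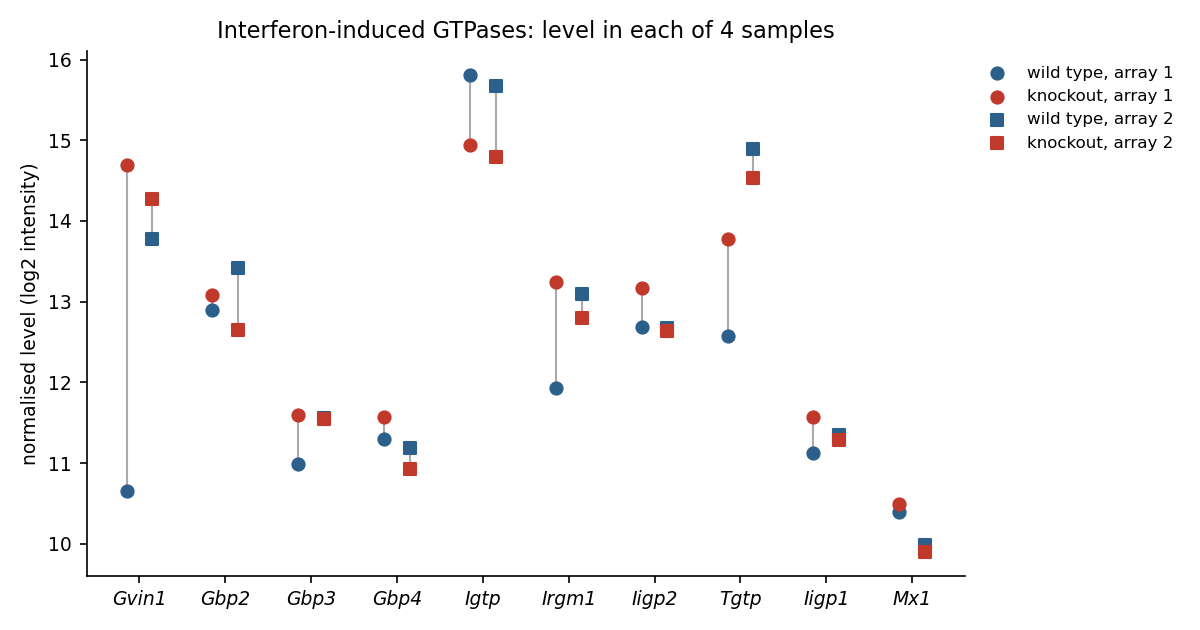
Normalised level (log2 intensity, vertical axis) of each GTPase in the 4 samples, with circles for array 1, squares for array 2, red for knockout and blue for wild type; grey lines join the samples of 1 array. Gvin1 shows the widest gap, 14.70 against 10.66 on array 1, and Igtp is the only gene with wild type above knockout on both arrays.

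Gvin1 was the GTPase with the highest mean ratio. Its level was 14.70 and 14.28 in the knockout samples of arrays 1 and 2, and 10.66 and 13.78 in the wild-type samples. The lone low sample was wild type on array 1, which lay 3.12 below the wild-type sample of array 2, while the knockout samples differed by 0.42. The ratio was therefore 4.04 on array 1 and 0.50 on array 2, or 16.4-fold and 1.41-fold. The mean was 2.27 ± 2.50 (SD, n = 2; limma adjusted p = 0.00144). A single standard error of 0.50 served all genes in the fit, which so took no account of the far larger spread of Gvin1 itself. With the arrays scaled to the same spread the adjusted p was 0.285 (limma), and with no background correction it was 0.0837. With no filter on dim probes the adjusted p was 0.457 (limma), so the call was lost under each of these choices.

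The 3 Gvin1 probes lie on the minus strand of chromosome 7 in the array design (build mm8), and the scanner software marked all of them as well above background in every sample. The probe nearest the 3′ end of the gene, at 105950570 to 105950629, gave ratios of 1.91 on array 1 and 0.56 on array 2. The middle probe, 517 bases upstream at 105951087 to 105951146, gave 2.13 and 0.43. The value above came from the brightest probe, 1997 bases upstream at 105952567 to 105952626. On array 2 the probes differed by at most 0.13, whereas on array 1 the brightest probe stood 1.90 above the next. With each probe tested on its own none of the 3 passed, with adjusted p = 0.147, 0.328 and 0.328 (limma), and their mean over the gene was 1.59 (adjusted p = 0.046). In wild-type cells on array 1 the raw signals were 1629 intensity units for the 3′ probe, 1907 for the middle probe and 1294 for the brightest, against a median of 1087 for negative control spots in that channel. In wild-type cells on array 2 they were 10752, 8183 and 11274 in the same order, against 1120 for negative controls. Related very large inducible GTPase genes exist in the mouse genome, and whether the probes also detect them was not tested.

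**Figure D2:**
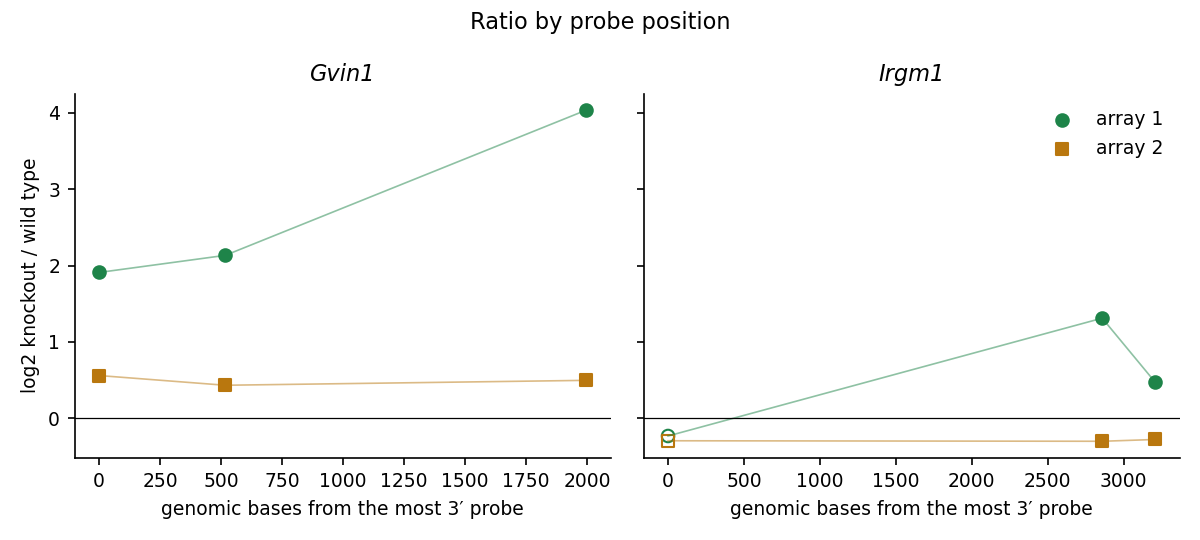
Log2 ratio of knockout over wild type (vertical axis) for each probe of Gvin1 and Irgm1, by genomic distance in bases from the most 3′ probe; green circles are array 1, orange squares are array 2, and open symbols are probes not well above background. On array 2 the Gvin1 probes lie between 0.43 and 0.56, and on array 1 between 1.91 and 4.04.

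Igtp, also named Irgm3, is one of the regulatory immunity-related GTPases, which hold the effector members inactive on the cell's own membranes. Its level was 14.94 and 14.79 in knockout cells and 15.81 and 15.67 in wild-type cells. Both wild-type samples were higher than both knockout samples. The ratio was -0.88 on each array, a mean of -0.88 ± 0.0026 (SD, n = 2), which is a 1.84-fold lower normalised level. Before normalisation the knockout channel was the brighter one, with raw signals of 53722 against 24290 on array 1 and 56642 against 37657 on array 2. The lower value thus rests on the normalisation between channels. The test did not call it (limma adjusted p = 0.607), and its 95% interval from the shared standard error ran from -1.85 to 0.10. When median centring replaced loess, the mean was 0.18 while the median of all measured genes rose from 0.04 to 0.68, so Igtp crossed 0 but stayed below the median gene. The single probe lies on chromosome 11 of mm8 at 58023620 to 58023679, plus strand.

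Iigp2 (current symbol Irgm2) and Irgm1 are the other regulatory members. Iigp2 had levels of 13.18 and 12.64 in the knockout and 12.69 and 12.67 in wild type, so that the groups overlapped. Its ratios were 0.49 and -0.03, with a mean of 0.23 ± 0.37 (SD, n = 2; limma adjusted p = 0.951). Its neighbour Igtp, with which it shares the paired promoter elements shown above, thus had a mean ratio on the other side of 0. The difference between these 2 genes was not tested.

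Irgm1, which is also needed for autophagy and for the survival of activated T cells in mice exposed to interferon gamma, had levels of 13.24 and 12.79 in the knockout and 11.93 and 13.10 in wild type. Wild type on array 1 was again the low sample, and the groups overlapped. The ratios were 1.31 and -0.30, with a mean of 0.50 ± 1.14 (SD, n = 2; limma adjusted p = 0.888). A second Irgm1 probe, 350 bases away, gave 0.47 and -0.28. The remaining probe, matched to another transcript record and not well above background in any sample, gave -0.23 and -0.30. The 2 measured probes agreed on array 2 and differed by 0.84 on array 1.

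Tgtp and Iigp1 are effector immunity-related GTPases, which load onto the vacuoles of parasites such as Toxoplasma. Tgtp had levels of 13.78 and 14.53 in the knockout and 12.57 and 14.89 in wild type. Both samples of array 2 were above both samples of array 1. The ratios were 1.20 and -0.36, with a mean of 0.42 ± 1.11 (SD, n = 2; limma adjusted p = 0.913). A second Tgtp probe passed the background criterion for knockout cells on array 1 and for wild-type cells on array 2, and in neither other sample, and gave 0.02 and -0.05. The RefSeq table holds 2 genes of this kind, Tgtp1 and Tgtp2, and a probe for one can detect the other.

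Iigp1, also named Irga6, had levels of 11.57 and 11.28 in the knockout and 11.12 and 11.35 in wild type. All 4 samples lay within 0.45 of each other. The ratios were 0.45 and -0.07, with a mean of 0.19 ± 0.36 (SD, n = 2; limma adjusted p = 0.959). Its probe lies on chromosome 18 of mm8 at 60517868 to 60517927, plus strand.

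The guanylate-binding proteins are relatives of dynamin that break open pathogen vacuoles and expose their contents to cytosolic sensors. Gbp2 had levels of 13.08 and 12.65 in the knockout and 12.89 and 13.42 in wild type. Its ratio was 0.19 on array 1 and -0.77 on array 2, with a mean of -0.29 ± 0.68 (SD, n = 2; limma adjusted p = 0.936). Among the 10 genes only Igtp had a lower ratio on array 2. With median centring the mean of Gbp2 was 0.62, just under the median of 0.68 over all genes.

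Gbp3 had levels of 11.60 and 11.54 in the knockout and 10.99 and 11.56 in wild type. The ratios were 0.61 and -0.02, with a mean of 0.30 ± 0.44 (SD, n = 2; limma adjusted p = 0.933). Gbp4 had levels of 11.58 and 10.93 in the knockout and 11.30 and 11.19 in wild type, so that both wild-type samples lay between the knockout samples. Its ratios, 0.27 and -0.26, cancelled to a mean of 0.01 ± 0.38 (SD, n = 2; limma adjusted p = 0.999). The 95% intervals of the mean ratio ran from -0.68 to 1.27 for Gbp3 and from -0.97 to 0.98 for Gbp4. A difference of close to 2-fold either way thus lies within the interval of Gbp4, and within that of Gbp3 only for higher levels in the knockout. Gbp2 and Gbp3 are probed on chromosome 3 of mm8 (142575141 to 142575200 and 142510494 to 142510553) and Gbp4 on chromosome 5 (105358363 to 105358422).

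Mx1 encodes an antiviral protein of the nucleus, and the RefSeq table lists the gene in C57BL/6J as a transcribed pseudogene. Its level was 10.50 and 9.90 in the knockout and 10.39 and 9.99 in wild type. The knockout channel was not well above background on array 2. The ratios were 0.10 and -0.08, with a mean of 0.01 ± 0.13 (SD, n = 2; limma adjusted p = 0.999). A second probe was not well above background in any sample.

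The arrays disagreed for most of these genes. On array 1, 9 of the 10 ratios were above 0, with a median of 0.47, and on array 2, 1 of the 10 was, with a median of -0.17. The medians over all measured genes were 0.05 and -0.01. A ratio above 0 on array 1 and below 0 on array 2 was seen in 8 of the 10 and in 1945 of the 9281 measured genes, while 61.8% of all genes had the same sign on both arrays. Only Gvin1 and Igtp, of the 10, had the same sign on both. Ratios past 2-fold were found on array 1 for 3 of the 10 (Gvin1, Irgm1 and Tgtp), beside 2504 of the 9281 measured genes, and on array 2 for none of the 10, beside 2.83% of all measured genes. On array 1 that is 27.0% of all genes, close to the share among the 10. These 3 genes were the 3 with the lowest wild-type level on array 1 against array 2: the gap was 3.12 for Gvin1, 2.31 for Tgtp and 1.17 for Irgm1, with a median of 0.37 over the 10 and -0.09 over all measured genes. A low wild-type level on array 1 by itself raises the ratio of that array, so this is not a separate observation.

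**Figure D3:**
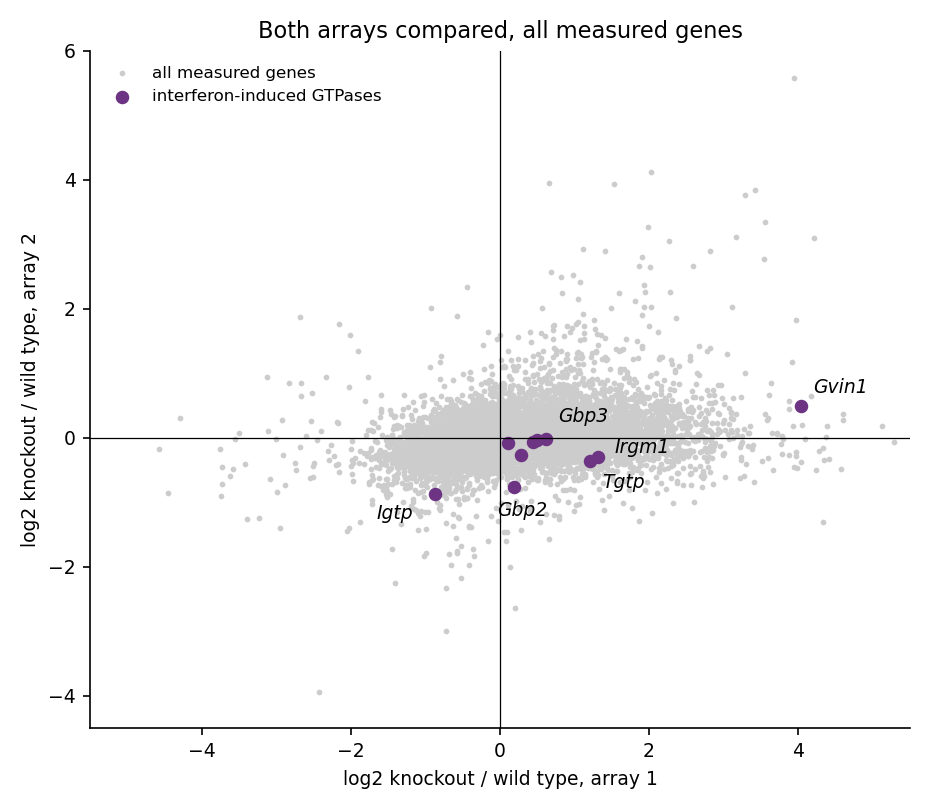
Log2 ratio of knockout over wild type on array 1 (horizontal axis) against array 2 (vertical axis) for all 9281 measured genes in grey and the 10 GTPases in purple. Of the GTPases, 8 lie to the right of 0 and below 0, with Igtp at -0.88 on both axes and Gvin1 at 4.04 and 0.50.

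The array data as a whole set how far these values reach. On array 1 the background criterion was passed by 17276 of 43379 gene spots for knockout cells and by 10739 for wild-type cells, against 10955 and 13446 on array 2. The SD of the ratios was 1.01 on array 1 and 0.41 on array 2. Bcl11b, the targeted gene, had ratios of -1.45 and -1.73 (limma adjusted p = 0.0747). The 10 markers fixed for CD8 T cells were all measured and none passed, Cd8a standing at levels of 14.52 to 15.31 over the 4 samples. The number of arrays, 2, limits the precision of every value.

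Of 12 listed interferon ligand and receptor genes, 6 were measured and none passed the test. The type I interferon genes Ifnb1, Ifna1, Ifna2, Ifna4 and Ifna5 and the receptor gene Ifnlr1 were not measured. Interferon gamma itself, Ifng, had ratios of -0.42 and 0.17. The receptor gene Ifngr1 was at 2.14 and -0.15 (limma adjusted p = 0.491) and Ifngr2 at 0.26 and -0.28. Of the type I receptor, Ifnar1 was at 0.82 and -0.21 and Ifnar2 at -0.22 and -0.17. Il10rb, a chain shared with other cytokine receptors, was at 1.26 and 0.26. The list's median was 0.54 on array 1 and -0.16 on array 2. Ifng, Ifngr1, Ifngr2 and Ifnar1, and Cd8a elsewhere in the text, were chosen after their values were seen.

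Of 18 measured transducers and regulators, none passed. Irf2, a repressor at the response element, came nearest, with 2.79 on array 1 and 0.38 on array 2 (mean 1.59 ± 1.70, SD, n = 2; limma adjusted p = 0.0747). The kinase gene Jak1 was at 0.82 and 0.62 and Irf8 at 0.78 and 0.56. Irf1, the activator that interferon gamma induces, was at -0.65 and -0.46.

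Of 24 other listed GTPases of these families, 9 were measured and none passed the test. Their medians were 0.35 on array 1 and -0.20 on array 2. Gbp6 was highest, at 1.44 and 0.54 (limma adjusted p = 0.496), and it has near-identical relatives that a probe can also detect. Gbp8 was at -0.20 and -0.02, and Irgc1, a member of the family that interferon is not known to induce, at -0.62 and -0.28. Interferon-induced genes of other kinds had medians of 0.02 on both arrays, with 37 measured and none past. Among those with 1 sign on both arrays were the exonuclease gene Isg20 (-1.19 and -0.44), the oligoadenylate synthetase gene Oas3 (1.35 and 0.58), the antiviral gene Rsad2 (0.50 and 0.46) and the kinase gene Eif2ak2 (1.14 and 0.36).

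The proteins that direct these GTPases to vacuoles belong to the ubiquitin-like conjugation system of autophagy. Of 12 measured genes none passed, with medians of 0.78 on array 1 and 0.02 on array 2. Gabarapl2 was at 1.01 and 0.72, Gabarap at 0.97 and 0.57, and Ube2n, a ubiquitin-conjugating enzyme gene, at 0.77 and 0.59. Atg16l1, the scaffold of the conjugation complex, was at -0.40 and -0.09.

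**Figure D4:**
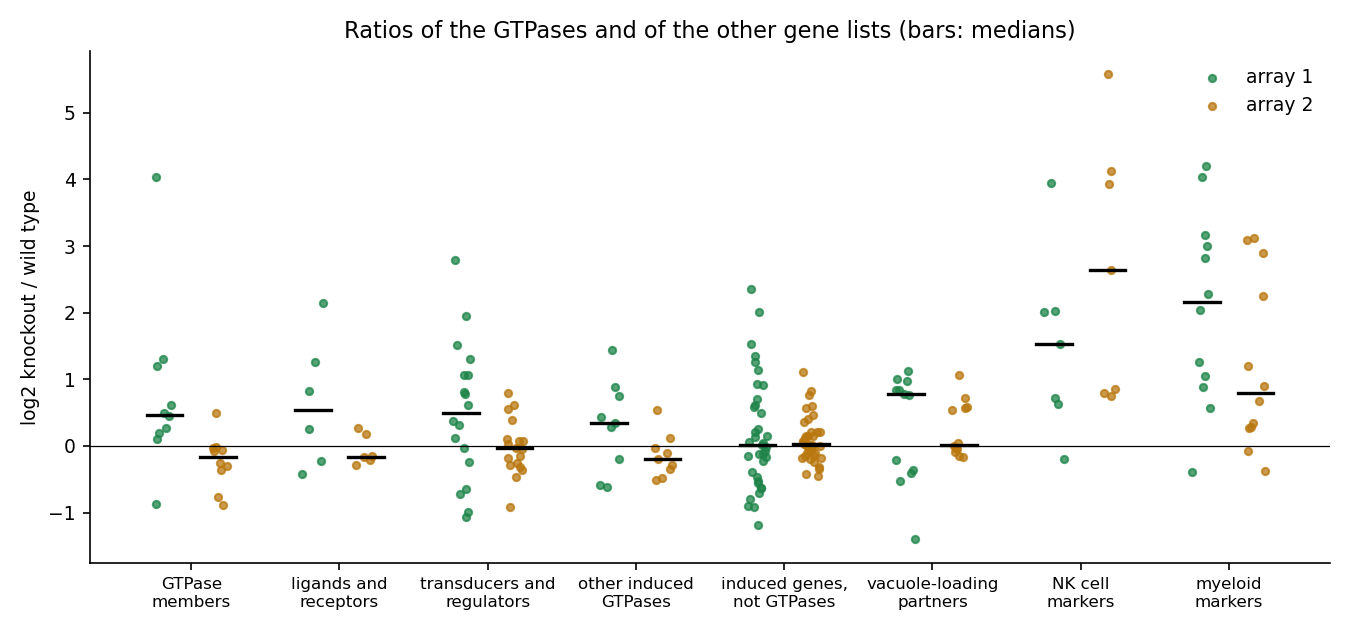
Log2 ratio of knockout over wild type (vertical axis) for each measured gene of the GTPases, of 5 lists of the interferon pathway and of 2 marker lists; green is array 1, orange is array 2, black bars are medians. The GTPases have medians of 0.47 and -0.17, and natural killer cell markers 1.52 and 2.64.

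Cells of other types also express these GTPases, so their markers are given beside them. Natural killer cell markers passed the test as higher in the knockout for 4 of 7 measured genes, beside 1.24% of all measured genes, and as lower for none. Their mean ratios ran from 0.33 to 4.76, with medians of 1.52 on array 1 and 2.64 on array 2. Their summed level was 25668 and 107080 linear intensity units in the knockout samples of arrays 1 and 2, and 8198 and 12495 in wild type. Macrophage and dendritic cell markers passed higher for 5 of 12, beside the same 1.24%, with medians of 2.16 on array 1 and 0.79 on array 2. Their summed level was 34111 and 38614 in the knockout and 7499 and 23229 in wild type. The wild-type sample of array 1 was thus the lowest for this list and for the natural killer cell list alike. Among the other marker lists it was also lowest for red cells (1217), but not for CD8 T cells, B cells or CD4 T cells. For CD8 T cell markers it stood at 410091, against 370267 in wild type on array 2. The wild-type sample of array 1 also had the fewest gene spots past the background criterion, 10739. Of the macrophage and dendritic cell list, Lyz2, the lysozyme gene of myeloid cells, had ratios of 4.03 and -0.38, beside 4.04 and 0.50 for Gvin1. Lyz2 was chosen after its values were seen. The other markers of the list that passed were high on both arrays, unlike Lyz2. They were Adgre1 (4.21 and 3.09), Csf1r (2.82 and 2.89), Itgax (2.29 and 2.26) and C1qc (3.16 and 3.12). Mpeg1 (3.004 and 0.277) and H2-Ab1 (2.038 and 0.348) did not pass but, like Lyz2, were far higher on array 1 than on array 2. Cd14 was below 0 on both arrays (-0.398 and -0.080). Of the 12 measured markers of the list, 11 were above 0 on array 1 and 10 on array 2. Mpeg1, H2-Ab1 and Cd14 were also chosen after their values were seen. The markers Itgam, Cd68 and Flt3 of that list, and Klre1 of the natural killer cell list, were not measured. Of the 4 measured B cell markers none passed, and Cd79a and Pax5 were among those not measured. Whether the RNA of these markers came from such cells or from the sorted T cells themselves was not tested. Any part that such cells have in the ratios of Gvin1 or the other GTPases was not tested either.

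Median centring in place of loess raised the mean ratio of all 10 genes, by 0.34 to 1.06, and raised the median of all measured genes to 0.68. Igtp, Gbp2 and Mx1 then lay below that median and the other members above it. Gvin1 was above 0 under every alternative tried. With the brightest probe or the mean of the probes standing for the gene, its mean ratios lay between 1.47 and 3.21. Tested on their own, the middle probe had a mean of 1.28 and the 3′ probe a mean of 1.23. The value of 1.47, from the scanner software's ratio, came from the 3′ probe, which was the brightest there. It thus changes the probe as well as the ratio.

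**Figure D5:**
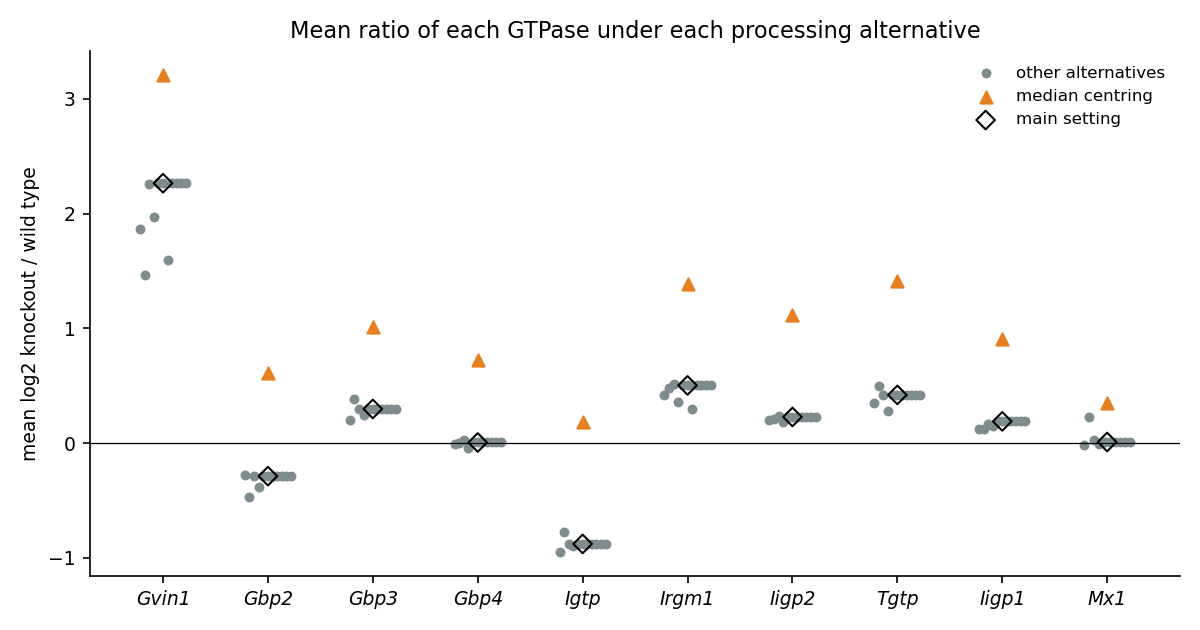
Mean log2 ratio of knockout over wild type (vertical axis) of each GTPase (horizontal axis) under each way of processing the arrays, with the reported value as a diamond and median centring as a triangle. Gvin1 spans 1.47 to 3.21, drawn with its brightest probe where each probe was tested on its own. Igtp is below 0 except with median centring, at 0.18, where the median of all genes is 0.68.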

How the data were processed

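Total RNA of sorted CD8+ T cells was amplified and labelled, per the labels, and hybridised to 2 two-colour arrays. The authors deposited each array's scanner output, which holds mean signal and background intensity per channel in linear units and the software's log10 ratio of Cy5 over Cy3. A deposited table of log10 values matched that ratio within 0.005, with a median of 0 on each array, and was not used further. The submitters' processing notes name Agilent Feature Extraction, version 9.5.3.1. The design annotation is on mm8, per the file headers.

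From the deposited intensities, background was corrected with normexp (offset 50), arrays were normalised by loess with control and outlier spots given no weight, and levels per channel were set by loess and Aquantile in limma 3.58.1 (R 4.3.3). Spots were averaged per probe, and the brightest measured probe stood for a gene. Probes were named by accession (24375), current symbol (6301) or older symbol (2426) through the RefSeq table of GRCm38.p6, and 8072 kept the name in the files. lmFit and eBayes gave p-values, adjusted by Benjamini-Hochberg over 9281 genes, with a threshold of 0.05. The spread was pooled across genes with infinite prior degrees of freedom, so the smallest mean log2 ratio that passed was 1.68 in size. The fit was checked on simulated data in which every gene had the same spread on both arrays. That check does not cover arrays or genes of unequal spread, as found here.

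The members, lists and tests were chosen with earlier results of these data known. All members were named, and from each pathway list (not the marker lists) up to 4 measured genes, those past the threshold first and then those with 1 sign on both arrays, ranked by the smaller ratio. Alternatives changed background, normalisation, filter, probe rule, names, variance model and arrays. Some genes of the lists are not reported here by name.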

Additional observations from a re-analysis of the deposited data

How the results depend on the processing

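Gvin1 kept its direction under all 12 alternatives fitted and passed the threshold under 7 of them, with limma adjusted p from 0.000125 to 0.630; the other members did not pass under any. The number of GTPases called went from 1 to 0 with no background correction, with the scanner software's ratio, with scaled arrays, with no filter and with each probe on its own. The number of genes called over the array went from 138 to 32 with no background correction, 63 with median centring (62 higher, 1 lower, against 115 and 23), 11 with scaled arrays (all higher), 40 with a filter on both channels, 29 with each probe on its own, 255 with the files' names, 302 with an intensity trend and 219 with a robust fit. It was 0 in limma with the scanner software's ratio, where 603 genes had an unadjusted p under 0.05, and 0 with no filter, where 2478 of 27595 genes did. It was 144 with normexp on the software's own background level, an alternative chosen after seeing the data. Gbp4 reversed to -0.0072 with no background correction, -0.0003 with the scanner software's ratio and -0.044 with scaled arrays, and Mx1 to -0.018 with no background correction and -0.007 with scaled arrays. Median centring raised the median of all measured genes from 0.04 to 0.68 and that of the members from 0.21 to 0.96. Gbp2 at 0.62 and Igtp at 0.18 crossed 0 with that shift and stayed below the median gene. The cause of the other changes was not tested. Leaving out 1 array at a time gave medians of the members from -0.17 to 0.47 and a Gvin1 ratio from 0.50 to 4.04, with no test since 1 array leaves no residual degrees of freedom. No paired analysis was possible because each array already holds 1 knockout and 1 wild-type sample as a ratio, so there is a single group of ratios. Signal over background limits Mx1 and the 3 member probes that were not measured.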

Other observations

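The arrangement seen in Igtp, Iigp2 and Tgtp, a gamma-activated site followed after 2 bases by the response element, was noticed after the sequences had been seen. It was found in 5 of 32851 promoter entries (0.0152%), those of Gm12185, Igtp, Irgm2 (the Iigp2 of the array), Tgtp1 (the Tgtp of the array) and Tgtp2. Of these genes 4 were measured. Gm12185 had ratios of -0.26 and -0.04, so the 4 measured genes had ratios from -0.88 to 1.20 on array 1 and from -0.88 to -0.03 on array 2, and none passed the test in limma. Their promoters resemble one another beyond the motifs, so they are not independent cases.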
